A study of Mus musculus with 15 samples.

Results

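The HSP70, HSP90 and DNAJ chaperones were followed as 1 set of genes in dystrophic muscle and heart. Members were the protein-coding genes whose mouse symbol belonged to the DNAJA, DNAJB, DNAJC, HSPA or HSP90 series, together with Hspd1, Hspe1 and Hsph1. The name rule gave 64 members among the 56980 genes quantified. It uses symbols only, but it and the gene lists below were set with earlier results of these data known. By residence, 27 members were assigned to the cytosol and nucleus, 13 to the endoplasmic reticulum (ER) and 10 to the mitochondria. The other 14 were vesicle-linked, endosomal or endothelial proteins and members of uncertain residence, such as Dnajc5 and Hspa12b. Bulk RNA-seq was done on 15 libraries, each labelled as a separate sample of the DBA/2J-mdx genotype, a strain that lacks dystrophin and models Duchenne muscular dystrophy. Tibialis anterior (TA), a muscle of the lower hind limb, was collected at 5 months from mice given dasatinib plus quercetin (D + Q, 4 mice) or vehicle (4 mice) from 3 months of age, for 2 months. Heart was collected at 16 months from mice given D + Q (3 mice) or vehicle (4 mice) from 12 months of age, for 4 months. All mice were dosed 2 times per week by mouth. Dasatinib is a kinase inhibitor and quercetin a plant flavonoid, and the pair is used as a senolytic, a treatment meant to clear senescent cells. Every group carried the mdx mutation, so no comparison here is with healthy muscle.

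Chaperones of the HSP70 family bind unfolded stretches of protein and release them in a cycle of ATP hydrolysis. DNAJ proteins bring clients to HSP70 and start the hydrolysis, HSP110 proteins such as Hsph1 exchange the nucleotide, and HSP90 takes over clients that are nearly folded. In the cytosol the stress-inducible members are switched on by the transcription factor HSF1, in the ER by the unfolded protein response, and in mitochondria Hspa9 pulls in imported chains that the Hspd1 and Hspe1 chamber then folds. Striated muscle depends on these proteins to fold myosin and to keep the sarcomere intact.

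The labelled tissues carried their own markers. The summed level of 8 skeletal fibre genes was 42390 to 53780 TPM (transcript share scaled for length and depth) in TA and 1331 to 1783 in heart, and that of 6 cardiomyocyte genes was 56.2 to 138 TPM in TA and 20770 to 27320 in heart. Within heart, the 10 atrial genes summed to 423 to 474 TPM with D + Q and 909 to 4357 with vehicle. The 5 red cell genes summed to 26.8 to 122 TPM with D + Q and 346 to 1231 with vehicle, and the 6 cardiomyocyte genes to 25800 to 27320 and 20770 to 22790. Heart D + Q replicate 3 was labelled male but had 47.2 TPM of the female transcript Xist and 0.0439 TPM of summed Y-linked genes, so it went against its label, and for the heart counts and the genes with the smallest p the value without it is given as well. TPM keeps no read depth, and all errors below come from the spread between mice.

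Promoter sequence set out the pairs and programs that the expression values were read against. Windows of 250 bases just upstream of the annotated transcription start were read from GRCm39. The stress-inducible HSP70 genes Hspa1a and Hspa1b are neighbours on chromosome 17, with starts 12918 bases apart. Their windows, chr17:35191133-35191382 and chr17:35178215-35178464, both on the minus strand and overlapping no annotated exon, are shown because the pair is so alike that reads may be divided between the genes, so both are described side by side. Capitals mark a pair of inverted heat-shock units, GAANNTTC.
Hspa1a: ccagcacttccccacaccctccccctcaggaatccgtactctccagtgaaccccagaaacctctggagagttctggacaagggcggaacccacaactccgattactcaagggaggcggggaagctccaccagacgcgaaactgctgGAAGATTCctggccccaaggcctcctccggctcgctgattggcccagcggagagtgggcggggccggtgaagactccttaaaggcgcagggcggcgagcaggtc
Hspa1b: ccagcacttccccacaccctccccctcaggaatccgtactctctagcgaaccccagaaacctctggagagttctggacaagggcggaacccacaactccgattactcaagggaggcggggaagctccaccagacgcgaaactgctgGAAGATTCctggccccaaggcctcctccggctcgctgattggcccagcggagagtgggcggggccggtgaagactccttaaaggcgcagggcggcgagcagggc
The windows were 98.8% identical. They overlap no annotated exon, so this identity does not bear on how reads were divided, and transcript sequences were not compared here. They differed at 3 of 250 bases, written with the Hspa1a base first and counted from the 5′ end of the window as C44T, T47C and T249G.

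A full heat-shock element, the units GAA, TTC and GAA or TTC, GAA and TTC with any 2 bases between neighbours, searched on both strands, lay in 2 of the 64 member windows, against 0.347% of 21631 protein-coding windows. Both were mitochondrial and were the same site. Hspd1 and Hspe1, the chamber and the lid of the mitochondrial folding machine, are transcribed away from each other from starts 108 bases apart, and the element lies between them at chr1:55127212-55127241. It is shown on the Hspe1 strand with the overlapping units in capitals.
Hspe1 and Hspd1: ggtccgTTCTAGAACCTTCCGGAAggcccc
The shorter pair of units, GAANNTTC or TTCNNGAA, each its own reverse complement and part of the full element, was searched after the full element had been counted. It was in 11 of 64 member windows (17.2%) and in 12.3% of all windows. The ER stress element, CCAAT followed after any 9 bases by CCACG, on either strand, was in 3 of the 13 ER windows, in no other member's window and in 0.116% of all windows. The 3 genes were Hspa5 (BiP, the ER HSP70), Hsp90b1 (the ER HSP90) and Dnajc3 (a BiP cofactor). The sites are shown in capitals because these genes are among the ER members described below.
Hspa5, chr2:34662032-34662061: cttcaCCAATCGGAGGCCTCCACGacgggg
Hsp90b1, chr10:86541496-86541525: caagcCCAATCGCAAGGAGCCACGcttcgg
Hsp90b1, chr10:86541391-86541420: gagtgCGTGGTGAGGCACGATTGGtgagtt
Dnajc3, chr14:119175234-119175263: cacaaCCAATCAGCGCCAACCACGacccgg
Each is written on its gene's strand, and the second Hsp90b1 site holds the element on the opposite strand. The windows of these genes overlap annotated exons, so only sites of 30 bases are shown. A match describes letters in the window and says nothing of binding.

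Constitutive chaperones made up most of the members' transcripts. TPM is scaled per length, so levels can be compared between genes. Hspa8, the constitutive cytosolic HSP70, had the highest level (417 to 1062 TPM over the 15 libraries), followed by the cytosolic HSP90 gene Hsp90ab1 (290.5 to 536). The next were Hspa9 (130.2 to 194), Hspa5 (95.2 to 225), Hsp90b1 (96.5 to 135) and Hspd1 (71.5 to 127). At the other end, 8 members did not reach 0.5 TPM in enough libraries to be tested (Dnajb13, Dnajb3, Dnajb7, Dnajb8, Dnajc22, Dnajc5b, Dnajc5g and Dnajc6), and Dnajb8 and Dnajc5g were listed at 0 in every library. The remaining 56 were tested in each of the 5 comparisons.

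The division among compartments separated muscle from heart. Cytosolic and nuclear members held 65.0% ± 1.44 (SD, n = 4) of the members' summed TPM in vehicle TA and 58.4% ± 1.48 (n = 4) in vehicle heart. Mitochondrial members held 17.6% ± 1.21 and 23.0% ± 1.06, with ranges of 16.3% to 19.0% and 21.9% to 24.4% that did not overlap. With D + Q the mitochondrial share was 16.5% ± 2.24 in TA (n = 4) and 23.6% ± 0.983 in heart (n = 3), again without overlap. The ER share was 14.8% ± 1.24 in vehicle TA and 16.2% ± 0.861 in vehicle heart, and those ranges overlapped. With D + Q it was 13.5% ± 1.66 in TA (11.1% to 14.96%) and 17.2% ± 0.403 in heart (16.7% to 17.5%), without overlap.

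**Figure D1:**
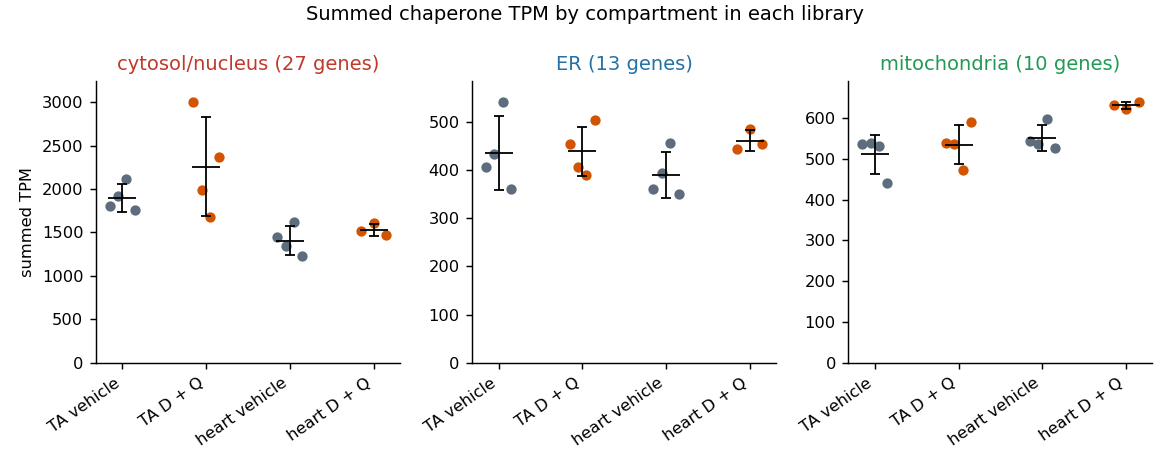
Summed TPM of the cytosolic and nuclear, ER and mitochondrial chaperones in each library. Points are mice (orange, D + Q; grey, vehicle), and the bars give the mean and SD. The mitochondrial sum was 622.5 to 640 in D + Q hearts and 440.5 to 599 in the other 12 libraries.

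The first question was whether D + Q altered chaperone transcripts in dystrophic TA. All D + Q mice were male and 2 of the 4 vehicle mice female, so sex goes partly with treatment in TA. No member was called in TA D + Q against TA vehicle by limma, nor with labelled sex in place of the surrogate variable, a call being an adjusted p below 0.05 with a log2 fold change beyond 0.5 in either direction. The share of all 16298 genes called was 0% in either direction, and the smallest adjusted p among the members in limma was 0.999. The study, with a model for counts and the same thresholds, reported differentially expressed genes in TA, so this 0% belongs to the limma fit of TPM. At an unadjusted p under 0.05 the count was also 0 of 56 members, where 0.638% of all genes were higher and 2.36% lower. The members' median log2 fold change was -0.03, against -0.07 for all genes, and was -0.03 for the cytosolic, -0.04 for the ER and 0.03 for the mitochondrial members. A positive value was found in 24 of 56 members and in 33.6% of all genes. Groups did not overlap for 0 members that were higher (0.264% of all genes) and for 1 that was lower. That member, Dnajc10, an ER reductase, had every D + Q library below every vehicle library, where 1.25% of all genes did. The gap was smaller than the digits shown, since the highest D + Q and the lowest vehicle value were both 17.87 TPM when rounded. Its levels were 17.8, 16.1, 17.3 and 17.9 TPM with D + Q and 18.9, 22.3, 17.9 and 18.1 with vehicle (log2 fold change -0.15, SE 0.13). In these bulk samples, fewer cells of a type and less RNA per cell cannot be told apart.

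A single TA library held most of what differed among the stress-inducible members. Among the D + Q libraries, Hspa1a was 181 TPM in replicate 1 and only 10.6, 1.45 and 7.14 in replicates 2, 3 and 4. In the vehicle replicates it was 6.65, 4.39, 9.22 and 8.12 TPM. The 3 remaining D + Q libraries thus spanned the vehicle range on both sides, and replicate 1 was 25.3 times the median of the other 7 TA libraries. Hspa1b followed its twin, at 166, 6.77, 1.60 and 6.04 TPM with D + Q and 5.24, 4.73, 7.17 and 5.61 with vehicle. Dnajb1, the inducible DNAJ partner of HSP70, had 55.9, 8.56, 3.23 and 5.17 TPM under D + Q and 5.56, 5.27, 6.47 and 3.59 with vehicle. D + Q replicate 1 was far above the other TA libraries in both, at 29.5 times their median for Hspa1b and 10.6 times for Dnajb1, and D + Q replicate 3 was the lowest of the 8.

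Other cytosolic members differed less in that library. Hsp90aa1, the inducible cytosolic HSP90, was 203, 66.0, 49.2 and 105 TPM with D + Q and 51.1, 56.6, 101 and 54.9 with vehicle. Dnaja1, a cochaperone of Hspa8, was 93.2, 30.8, 30.2 and 45.9 TPM with D + Q and 24.4, 43.1, 52.7 and 38.4 with vehicle. Replicate 1 was the highest of the 8 for both. Dnajb4, a further cytosolic HSP70 partner, was 127 TPM in replicate 1 and 24.6 to 51.3 in the other 7. Hspa8 was 1062, 726, 642 and 979 TPM with D + Q and 623, 644, 834 and 631 with vehicle, so its highest 2 libraries were D + Q and its spread overlapped the vehicle mice. Hsp90ab1 (478, 476, 376 and 536 TPM with D + Q; 475, 503, 483 and 367 with vehicle) showed no such library, and neither did Hsph1 (34.5, 29.5, 16.9 and 37.1; 26.5, 28.3, 37.7 and 19.7).

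In all, D + Q replicate 1 was above the other 7 TA libraries in 9 of 56 members, or 16.1%, where 15.8% of all genes were. Of 10 members known as HSF1 targets, 6 were among them. The level was at least 2 times the median of the other libraries in 6 members (10.7%), where 6.71% of all genes reached this. All 9 were cytosolic or nuclear, and 0 of 13 ER and 0 of 10 mitochondrial members were above all others. The 3 injury-response genes Il33, Ccl2 and Sdc4 gave sums of 304, 39.1, 29.4 and 139 TPM in the D + Q mice and of 43.1, 29.9, 133 and 23.99 in the vehicle replicates, and were thus also highest in D + Q replicate 1. The surrogate variable in the TA model was 0.703 in that library and -0.419 to 0.295 in the other 7. The study names these injury-response genes among those higher with D + Q in the same TA samples. The surrogate variable was likewise estimated from these TA libraries. Neither measure is therefore an independent readout of D + Q replicate 1. The part of either measure in the chaperone values was not tested.

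**Figure D2:**
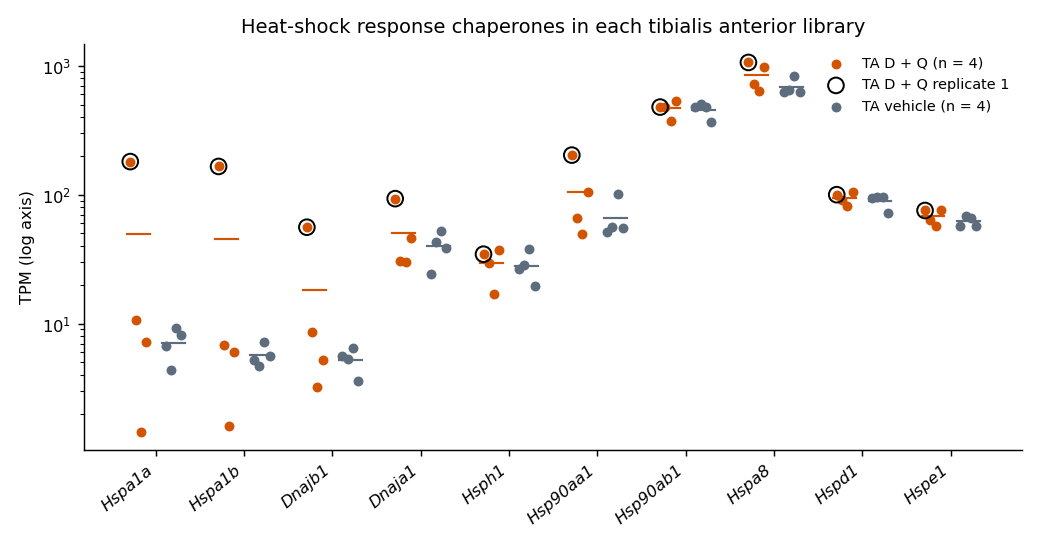
TPM on a log axis of 10 chaperones known as HSF1 targets in the 8 TA libraries (orange, D + Q; grey, vehicle; short lines, means). The ringed library, D + Q replicate 1, was at 181 TPM for Hspa1a, 166 for Hspa1b and 55.9 for Dnajb1, while the other 7 stayed at or below 10.6, 7.17 and 8.56.

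The fitted differences of the most inducible genes changed when single libraries were left out. The limma log2 fold change of Hspa1a was 0.07 (SE 0.63) with all libraries and -0.42 (SE 0.50) without D + Q replicate 1, and that of Hspa1b was 0.12 (SE 0.60) and -0.40 (SE 0.34). Neither passed the test (adjusted p = 0.999 in limma with all libraries). For Dnajb1 the value was 0.38 (SE 0.42) and then 0.04 (SE 0.24). Leaving out vehicle replicate 3 instead gave -0.43 for Hspa1a and -0.41 for Hspa1b. Hspa8 had 0.17 (SE 0.11) and 0.19 (SE 0.14), and Hsp90aa1 0.20 (SE 0.13) and 0.14 (SE 0.24). With all libraries and no surrogate variable, Hspa1a stood at 0.84 (SE 1.07).

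The leading ER and mitochondrial chaperones overlapped between treatments in TA. In the ER, Hspa5 was 169, 126, 123 and 182 TPM with D + Q and 125, 126, 225 and 95.2 with vehicle, so the highest and the lowest library were both vehicle. Hsp90b1 was 107, 101, 96.5 and 135 TPM with D + Q and 97.3, 108, 130.2 and 97.6 with vehicle. Dnajb9, a BiP cochaperone induced by ER stress, ranged only from 24.3 to 29.0 TPM over the 8 libraries. In mitochondria, Hspa9 was 169, 173, 148 and 194 TPM with D + Q and 171, 150.0, 165 and 130.2 with vehicle. Hspd1 was 91.0, 81.2 and 106 TPM in D + Q replicates 2 to 4, with replicate 1 between the first and the last of these, and 94.4, 96.6, 95.8 and 71.5 with vehicle. Hspe1 was 75.4, 63.3, 57.4 and 76.3 against 57.5, 67.8, 66.2 and 57.0. D + Q replicate 4 was the highest TA library for all 3 of these mitochondrial genes.

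The partners of the chaperones were likewise not called in TA. Of 16 cytosolic cochaperones and HSF genes, 1 was higher at an unadjusted p under 0.05, and of 15 ER folding and unfolded protein response genes also 1. These were Fkbp5, an HSP90-binding immunophilin induced by glucocorticoids (log2 fold change 0.67), and Atf4, a stress transcription factor (0.32). None of 11 mitochondrial partners passed that level in either direction, and limma gave no call in any of the 3 lists.

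The second question was the same for heart. All D + Q hearts expressed as female, while vehicle replicates 1 and 4 expressed as male, so sex goes partly with treatment here too. The heart fit carried labelled sex, which the expression of D + Q replicate 3 contradicts. With sex read from expression in its place no member was called either. No member was called in heart D + Q against heart vehicle by limma, where 0.105% of 16132 genes were called higher and 0.211% lower (0.13% and 0.211% with no minimum fold change, and again 0 members). The smallest adjusted p of a member in limma was 0.105, for Dnajc13, an endosomal DNAJ protein. At an unadjusted p under 0.05, 8 of 56 members were higher and 3 lower, where 9.65% of all genes were higher and 7.99% lower. Groups did not overlap for 7 members that were higher and 2 that were lower, where 9.63% and 5.57% of all genes did so, which puts the members near the background. Their median log2 fold change was 0.11, while that of all genes was -0.002, and 41 of 56 had a positive value, where 49.5% of all genes did. Without D + Q replicate 3 the counts by p, the positive share and the median shrank: 2 members were higher and 2 lower at an unadjusted p under 0.05 (5.84% and 6.15% of all genes), 32 of 56 were positive (47.4%), and the median was 0.04 (all genes -0.01). Groups then did not overlap for 11 members that were higher and 2 that were lower, where 2830 and 1180 of 15963 genes did so. No member was called.

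The mitochondrial members lay mostly on the positive side, as did the ER and the cytosolic and nuclear members. The sign was positive in 9 of 10 mitochondrial members with a median of 0.15 (8 of 10 and 0.09 without D + Q replicate 3). It was positive in 10 of 13 ER and 20 of 27 cytosolic and nuclear members (7 and 16 without D + Q replicate 3). The summed mitochondrial level was 632, 622.5 and 640 TPM with D + Q and 544, 536, 599 and 526 with vehicle. Those sums did not overlap, while the ER and the cytosolic and nuclear sums did. The sums of the 16 cytosolic cochaperones and HSF genes also did not overlap (704 to 716 TPM with D + Q, 573 to 702 with vehicle). Hspa9, the import motor and mitochondrial HSP70, was 187, 181 and 182 TPM with D + Q and 154, 149, 168 and 157 with vehicle, so every D + Q heart was above every vehicle heart. Its log2 fold change was 0.22 (SE 0.06; adjusted p = 0.13 in limma), and it was 0.22 without D + Q replicate 3 (limma adjusted p = 0.375). Hspd1 was 126, 124 and 127 TPM with D + Q and 102, 96.7, 123 and 103 with vehicle, a narrow gap to vehicle replicate 3 (log2 fold change 0.24, SE 0.09; limma adjusted p = 0.227). Its neighbour Hspe1, divided from it by the heat-shock element shown above, was 98.7, 86.1 and 90.7 TPM with D + Q and 79.8, 84.2, 89.2 and 74.9 with vehicle, and the groups overlapped. Dnajc19, a subunit of the inner membrane import motor, was 40.1, 50.3 and 51.9 TPM with D + Q and 37.1, 39.6, 40.6 and 34.2 with vehicle (log2 fold change 0.31, SE 0.11; limma adjusted p = 0.207). When D + Q replicate 3 was left out, the log2 fold change was 0.19 for Hspd1 and 0.16 for Dnajc19.

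In the ER, Hspa5 had the largest difference. It was 191, 203 and 194 TPM with D + Q and 125, 139, 188 and 131 with vehicle, so vehicle replicate 3 reached almost the D + Q level and the other 3 stayed well below it. The log2 fold change was 0.41 (SE 0.12; limma adjusted p = 0.148). Without vehicle replicate 3 it was 0.55 and Hspa5 became the single member called in any heart fit (limma adjusted p = 0.0323). Without D + Q replicate 3 it was 0.29 (limma adjusted p = 0.481), and with sex read from expression in place of the label 0.28 (limma adjusted p = 0.373). The rest of the ER group did not share the size of this difference. Hsp90b1, whose window also holds the ER stress element, was 116, 126 and 125 TPM with D + Q and 105, 114, 129 and 97.9 with vehicle, and Dnajb9 was 19.6, 20.9 and 19.2 against 18.8, 20.1, 21.1 and 17.4. Dnajc3, the other gene with the element, was 11.2 to 11.7 TPM with D + Q and 10.2 to 12.1 with vehicle. Among the next by p, Dnajb11, a BiP cochaperone, had a log2 fold change of 0.18 (SE 0.09) and Dnajc16 of 0.17 (SE 0.09).

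Hspa1a and Hspa1b were low in heart, with negative fold changes. Hspa1a was 1.47, 1.71 and 1.14 TPM with D + Q and 2.29, 1.14, 5.69 and 1.41 with vehicle. Hspa1b was 0.690, 1.42 and 0.697 TPM with D + Q and 2.27, 1.49, 3.81 and 1.06 with vehicle. Vehicle replicate 3 was the highest for both, and the groups overlapped. The log2 fold changes were -0.57 (SE 0.42) and -0.89 (SE 0.34; limma adjusted p = 0.237), and became -0.08 and -0.60 when vehicle replicate 3 was left out. Leaving out D + Q replicate 3 gave -0.61 and -0.95. Dnajb1 was 5.17, 4.71 and 4.27 TPM with D + Q and 6.41, 4.37, 8.72 and 4.47 with vehicle, and Hsph1 15.8, 12.4 and 12.9 against 13.6, 12.1, 20.9 and 10.5. Over the 10 HSF1 targets, heart vehicle replicate 3 was the highest of the 7 hearts in 7. Over all tested members it was highest in 17 of 56, and vehicle replicate 4 was lowest in 28. The shares of all genes with these ranks are not given. The counts therefore have no background and are not read as a trait of the chaperones.

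Among the cytosolic members with the smallest p, Hspa2, an HSP70 best known from the testis, was 2.23, 2.78 and 2.34 TPM with D + Q and 3.34, 4.56, 3.25 and 4.36 with vehicle. Every D + Q heart was below every vehicle heart (log2 fold change -0.57, SE 0.16; limma adjusted p = 0.14). Dnajc7, an adaptor between HSP70 and HSP90, was 38.0, 34.2 and 35.3 TPM with D + Q and 30.3, 30.7, 31.8 and 28.5 with vehicle, again without overlap but in the other direction (log2 fold change 0.23, SE 0.06; limma adjusted p = 0.144). Dnajb2, whose loss causes a motor neuropathy, had a log2 fold change of 0.24 (SE 0.08). Dnajc13 was 11.5, 10.9 and 9.94 TPM with D + Q and 12.7, 13.9, 14.4 and 11.9 with vehicle, and its D + Q hearts lay below all vehicle hearts (log2 fold change -0.31, SE 0.07). Without D + Q replicate 3 the log2 fold change was -0.54 for Hspa2, 0.21 for Dnajc7, 0.24 for Dnajb2 and -0.33 for Dnajc13.

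The abundant cytosolic chaperones differed little in heart. Hspa8 was 488, 574 and 508 TPM with D + Q and 524, 432, 588 and 417 with vehicle. Hsp90ab1 was 350.2, 385 and 322 TPM with D + Q and 311, 314, 346 and 290.5 with vehicle. Hsp90aa1 was 93.7, 83.5 and 87.6 against 78.6, 81.2, 98.4 and 50.5, and Dnaja1 33.6, 30.6 and 24.9 against 35.5, 23.6, 40.4 and 26.1. In each of these 4 genes the vehicle range overlapped the D + Q range, with vehicle replicate 4 the lowest for all but Dnaja1.

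**Figure D3:**
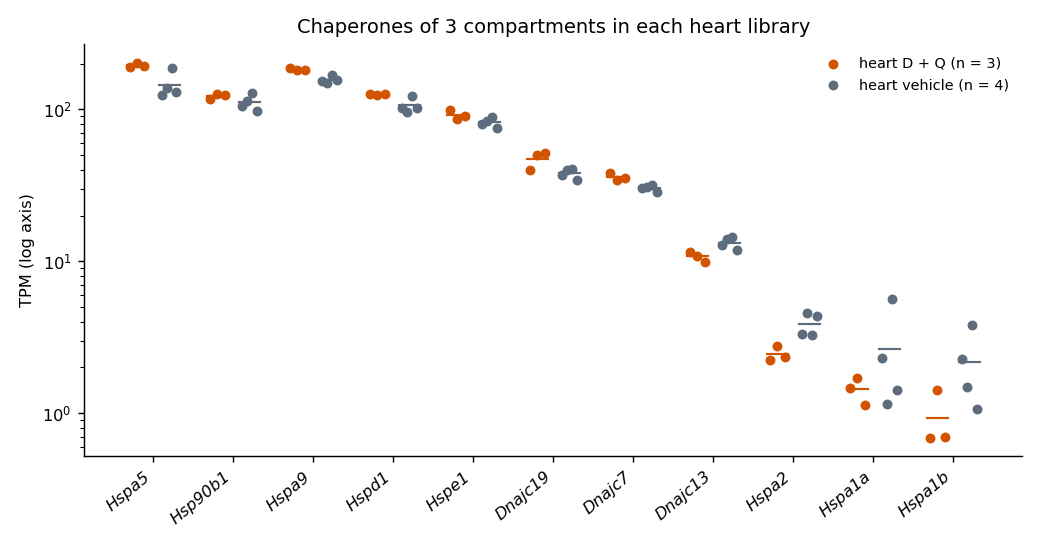
TPM on a log axis of 11 chaperones in the 7 heart libraries (orange, D + Q; grey, vehicle; short lines, means). D + Q hearts lie above vehicle hearts for Hspa5, Hspa9, Hspd1 and Dnajc7 and below them for Dnajc13 and Hspa2, while Hspa1a and Hspa1b overlap.

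Genes of the same pathways were mostly positive in heart, and none was called. Of 16 cytosolic cochaperones and HSF genes, 16 had a positive log2 fold change (median 0.17) and 6 were higher at an unadjusted p under 0.05, where 49.5% and 9.65% of all genes were. The leading one was Unc45b, the myosin chaperone of striated muscle, at 38.2, 41.4 and 36.5 TPM with D + Q and 27.8, 29.2, 34.8 and 31.9 with vehicle (log2 fold change 0.30; limma adjusted p = 0.146). Of 11 mitochondrial partners, 10 were positive (median 0.18) and 5 higher at an unadjusted p under 0.05. Trap1, the mitochondrial HSP90, was 46.7, 45.3 and 44.9 TPM with D + Q and 37.2, 36.3, 38.6 and 38.3 with vehicle, without overlap (log2 fold change 0.27; limma adjusted p = 0.098). Of 15 ER folding and unfolded protein response genes, 11 were positive, 2 were higher at that level and 1 was lower. Ddit3, the stress transcription factor CHOP, was the lower one (log2 fold change -0.44; limma adjusted p = 0.108), where 7.99% of all genes were lower. Without D + Q replicate 3, 13 of 16 cytosolic cochaperones, 11 of 11 mitochondrial partners and 11 of 15 ER genes were positive. At an unadjusted p under 0.05, 1, 4 and 1 of these were then higher (5.84% of all genes), and the log2 fold changes were 0.32 for Unc45b, 0.29 for Trap1 and -0.38 for Ddit3.

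Other transcripts moved with the same split of the hearts. The 6 cardiomyocyte genes were all positive, with a median log2 fold change of 0.27, which exceeds the median of any chaperone compartment, and 5 of the 6 were higher at an unadjusted p under 0.05. Among the atrial genes, 4 of 10 were called lower with D + Q, and among the 5 red cell genes all 5 were lower at an unadjusted p under 0.05 and none was called. Of 13 clock genes, 1 was called higher and 7 lower. The 5 fibroblast genes were all negative (median -0.40), summed to 428.5 to 502 TPM with D + Q and 537 to 752 with vehicle, and 3 were lower at an unadjusted p under 0.05. Of 6 macrophage and leukocyte genes 5 were negative, with 1 lower at that level. Without D + Q replicate 3, 3 of 10 atrial and 0 of 13 clock genes were called, 6 of 6 cardiomyocyte genes stayed positive (median 0.32) and 4 of 5 fibroblast genes negative. The part of these in the chaperone values was not tested.

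**Figure D4:**
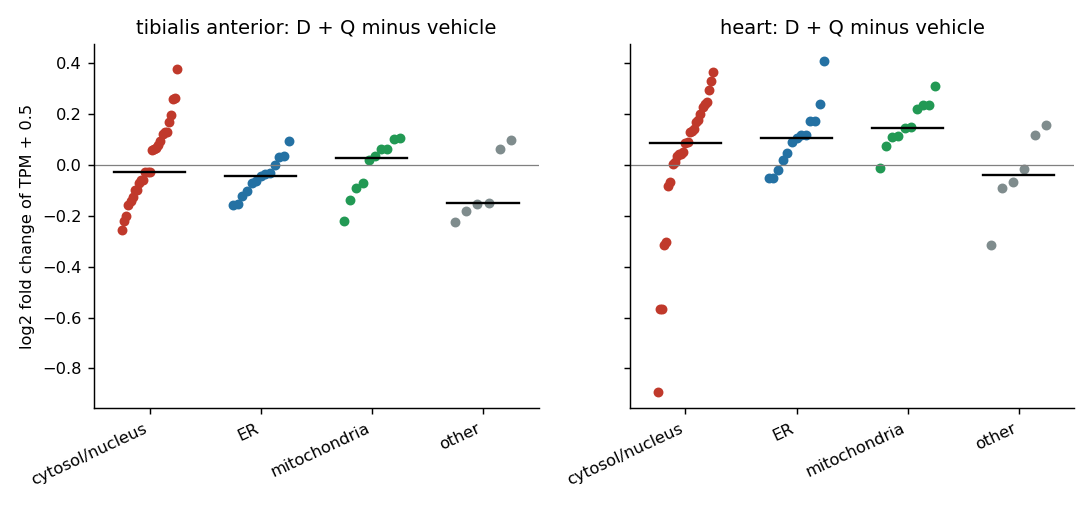
The log2 fold change of TPM + 0.5, D + Q minus vehicle, for the 56 tested members in TA (left) and heart (right), by compartment (one point per gene, line at the median). Compartment medians were -0.03, -0.04, 0.03 and -0.15 in TA and 0.09, 0.11, 0.15 and -0.04 in heart for cytosol and nucleus, ER, mitochondria and other members, and no point passed the adjusted threshold.

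A difference in treatment effect between the tissues was tested directly. No member was called by limma for the interaction of treatment and tissue, where 0.0056% of 17868 genes were called higher and 0.056% lower. At an unadjusted p under 0.05 the count was 1 of 56, Dnajc19 (log2 difference heart minus TA 0.35, SE 0.16), where 1.98% of all genes were higher and 2.24% lower. Hspa5 had a difference of 0.39 (SE 0.35), Hspa2 of -0.74 (SE 0.39) and Dnajc8, a splicing-associated DNAJ protein, of 0.38 (SE 0.18). The value was positive in 39 of 56 members and in 51.7% of all genes. The treatment effect in heart was not shown to differ from that in TA for any chaperone.

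The largest differences among the chaperones were between the tissues. In vehicle TA against vehicle heart, 20 of 56 members were higher and 2 lower by limma, where 24.1% of 16893 genes were called higher and 14.8% lower. The median log2 fold change was 0.27 for the members and 0.16 for all genes, so part of the shift was shared by the whole transcriptome. After median-of-ratios scaling of the libraries, which brought the all-gene median to 0.01, 13 members were higher and 6 lower. The shares of all genes called under that scaling are not given, so these counts have no background. With no minimum fold change 25 members were higher and 6 lower (29.1% and 16.3% of all genes), and at an unadjusted p under 0.05 they were 26 and 6 (34% and 18.7%). Groups did not overlap for 24 higher and 6 lower members (26.7% and 15.3%), and 35 of 56 had a positive value (61.8%). In the unscaled vehicle fit the members' share called higher was thus above that of all genes and their share called lower below it. Their positive share was near it. In the D + Q comparison described below, 13 of 56 were higher and 5 lower, where 21.2% and 15.6% of all genes were. By compartment, 13 of 27 cytosolic and nuclear members and 5 of 13 ER members were higher in TA. Of 10 mitochondrial members 0 were called in either direction in limma, with 2 higher and 4 lower at an unadjusted p under 0.05. Tissue goes together with age and treatment length, and these cannot be told apart.

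The HSP70 family held several of the largest gaps. Hspa1l, the HSP70 gene that starts 532 bases from Hspa1a on the opposite strand, was 8.51, 10.3, 8.82 and 11.2 TPM in vehicle TA and 2.67, 2.10, 2.65 and 2.21 in vehicle heart. The groups were far apart (log2 fold change 1.81, SE 0.14; limma adjusted p = 6.83e-06). Hspa1a was 4.39 to 9.22 TPM in vehicle TA and 1.14 to 5.69 in vehicle heart, and these overlapped through heart vehicle replicate 3 (log2 fold change 1.44, SE 0.40; limma adjusted p = 0.0158), and the call was lost without heart vehicle replicate 4. Hspa1b was 4.73 to 7.17 and 1.06 to 3.81 TPM without overlap (1.31, SE 0.29; limma adjusted p = 0.00528), and Hspa2 was 5.10 to 10.2 and 3.25 to 4.56 (0.84, SE 0.19; limma adjusted p = 0.00581). Hspa4l, an HSP110 protein, went the other way, at 5.28, 7.89, 5.63 and 5.55 TPM in TA and 17.0, 17.0, 18.1 and 15.6 in heart. It was the member lowest in TA relative to heart (log2 fold change -1.42, SE 0.13; limma adjusted p = 2.48e-05). Hsph1, of the same subfamily, was higher in TA (26.5, 28.3, 37.7 and 19.7 TPM against 13.6, 12.1, 20.9 and 10.5; log2 fold change 0.96, SE 0.24), with heart vehicle replicate 3 above the lowest TA library.

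DNAJ members led the list in size. Dnajc27, a DNAJ protein with a Rab-like GTPase domain, was 20.9, 17.7, 16.7 and 11.2 TPM in vehicle TA and 3.47, 2.99, 3.93 and 3.47 in vehicle heart. Every TA library was more than 2 times every heart library (log2 fold change 2.08, SE 0.18; limma adjusted p = 1.26e-05). Dnajc21, which acts in ribosome maturation, was the tightest, at 35.7 to 36.9 TPM in TA and 13.6 to 14.8 in heart (1.33, SE 0.10; limma adjusted p = 3.76e-06). Dnajb5, a cytosolic HSP70 partner of muscle, was 59.3 to 89.8 and 21.9 to 39.8 TPM (1.28, SE 0.19). Hspa12b, an endothelial HSP70 relative, was 5.62 to 10.3 TPM in TA and 9.85 to 13.5 in heart, and was called lower although the groups overlapped (-0.57, SE 0.19; limma adjusted p = 0.0334). Its call was lost without TA vehicle replicate 3 or 4 and without heart vehicle replicate 2, 3 or 4.

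Among the abundant chaperones, Hspa8 and Hsp90ab1 lay higher in TA, and Hspa5 and Hsp90b1 did not separate the tissues. Hspa8 was 623 to 834 TPM in vehicle TA and 417 to 588 in vehicle heart, without overlap, and missed the minimum fold change (log2 fold change 0.48, SE 0.15), which it passed at 0.60 without heart vehicle replicate 3. Hsp90ab1 was 367 to 503 and 290.5 to 346 TPM, also without overlap. It was called with a log2 fold change near the limit (0.53, SE 0.13; limma adjusted p = 0.00727) and lost that call without TA vehicle replicate 2 or 3 or heart vehicle replicate 4. The 5 ER members higher in TA were Dnajb11, Dnajb12, Dnajb14, Dnajc3 and Dnajc18, all of the DNAJ series. Hspa5 and Hsp90b1 overlapped between tissues, Hspa5 at 95.2 to 225 TPM in TA and 125 to 188 in heart and Hsp90b1 at 97.3 to 130.2 and 97.9 to 129. In the pathway lists, 8 of 16 cytosolic cochaperones and HSF genes were higher in TA and 1 lower, and 5 of 15 ER folding genes were higher, where 24.1% of all genes were called higher and 14.8% lower. Of 11 mitochondrial partners, 0 were higher and 1 lower.

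The D + Q groups gave the tissue comparison again in libraries that the vehicle comparison did not use. In D + Q TA against D + Q heart, limma called 13 of 56 members higher and 5 lower, where 21.2% of 16381 genes were called higher and 15.6% lower. The median log2 fold change was 0.18 for the members and 0.10 for all genes, and with median-of-ratios scaling (median of all genes 0.01) the counts were 10 higher and 9 lower. With no minimum fold change 19 were higher and 9 lower (25% and 17.5% of all genes), and at an unadjusted p under 0.05 they were 20 and 10 (29.7% and 20.4%). Groups did not overlap for 18 higher and 12 lower members (28.2% and 20.2%), and 36 of 56 had a positive value (56.9%). Of the 20 vehicle calls higher in TA, 12 were also called here, which is 60% of the vehicle list and 92.3% of the D + Q list. Both vehicle calls lower in TA, Hspa4l and Hspa12b, were called again, 100% of the first list and 40% of the second. The rate at which all genes were called again is not given, so these percentages have no background and are not read as a trait of the chaperones. The Hspa12b call in D + Q mice was lost without any 1 of the 3 heart replicates. All 4 TA mice were male by label and expression, and all 3 hearts expressed as female, so sex and tissue cannot be told apart here. With labelled sex in the model the counts were 8 higher and 1 lower, but that fit separates sex from tissue only through heart replicate 3, whose label its expression contradicts. Without heart D + Q replicate 3 they were 12 and 4, and without TA D + Q replicate 1 they were 14 and 4. For the scaled, labelled-sex and left-out fits the shares of all genes are not given. Those counts show only how the member calls moved.

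The 5 members lower in D + Q TA included 3 mitochondrial DNAJ proteins. Dnajc28 was 11.7, 12.3, 8.47 and 12.6 TPM in TA and 18.1, 17.5 and 16.8 in heart (log2 fold change -0.63, SE 0.15; limma adjusted p = 0.00952). Dnajc4 was 20.9, 19.6, 15.9 and 15.8 TPM in TA and 26.9, 27.6 and 27.6 in heart (-0.60, SE 0.12; limma adjusted p = 0.00494). Dnajc15, which takes part in mitochondrial protein import, was 34.8, 40.3, 37.1 and 40.4 TPM in TA and 47.4, 62.5 and 57.0 in heart (-0.53, SE 0.11; limma adjusted p = 0.00603), a call lost without TA replicate 1 or heart replicate 2. Every TA library lay below every heart library in all 3. In vehicle mice the same genes also did not overlap and were lower in TA, with limma adjusted p of 0.00686, 0.0304 and 0.0442 and log2 fold changes of -0.44, -0.41 and -0.33, short of the minimum size.

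Single libraries weighed on the inducible genes here as well. The D + Q tissue difference was 2.77 (SE 1.28) for Hspa1a and 3.02 (SE 1.27) for Hspa1b, with adjusted p of 0.118 and 0.0905 in limma, and neither was called. Without TA D + Q replicate 1 these were 1.51 (SE 0.58) and 1.73 (SE 0.47), and Hspa1b was then called (limma adjusted p = 0.0212). Hspa8 was 642 to 1062 TPM in TA and 488 to 574 in heart without overlap, and was called (log2 fold change 0.68, SE 0.18; limma adjusted p = 0.0151), but not without heart D + Q replicate 3 (0.66; limma adjusted p = 0.0543) or without heart D + Q replicate 1. Hspa2 was 5.75 to 15.03 TPM in TA and 2.23 to 2.78 in heart (1.73, SE 0.29; limma adjusted p = 0.00163). Hspa5 had every TA library below every heart library (123 to 182 and 191 to 203 TPM) and was not called (-0.41, SE 0.15; limma adjusted p = 0.0571).

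**Figure D5:**
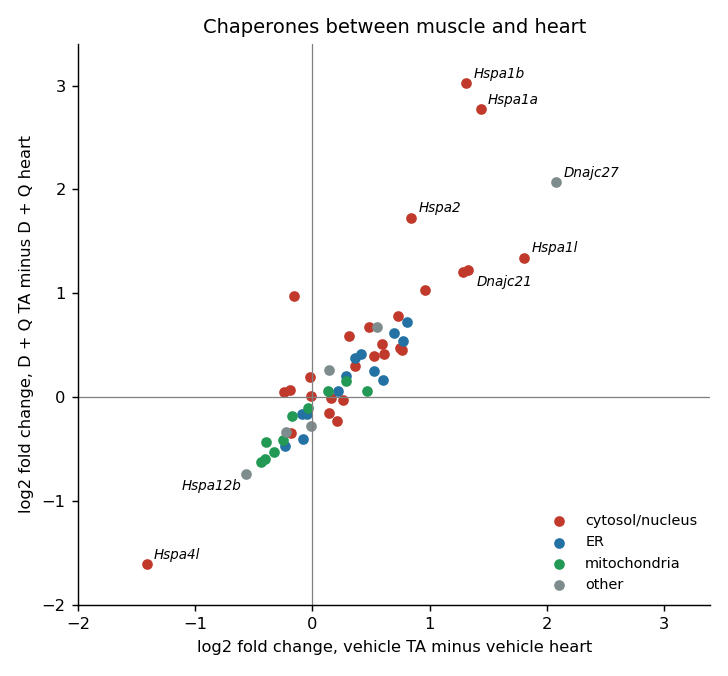
The log2 fold change of TPM + 0.5, TA minus heart, for the 56 tested members in vehicle mice (horizontal) and D + Q mice (vertical), coloured by compartment. The axes share no library. Dnajc27 lies at 2.08 and 2.07 and Hspa4l at -1.42 and -1.61, while Hspa1a and Hspa1b lie at 1.44 and 1.31 with vehicle and at 2.77 and 3.02 with D + Q.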

How the data were processed

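RNA was sequenced from 8 TA and 7 heart samples. They are treated as separate mice, and p-values measure only the spread between them. The authors trimmed reads with Trim Galore 0.6.10, quantified them with Salmon 1.10.3 and GRCm39 and summarised them per gene with tximport. The TPM values they deposited for 56980 genes were used as given, and the annotation release is not given in the sources used here. Because TPM keeps no depth, counting error is unknown, and the DESeq2 model of the authors, which needs counts, was replaced by limma. With that model the authors reported many more genes in both tissues at the same thresholds, so the treatment calls here belong to the limma fit. Identifiers were matched to GENCODE M39 (56236 found).

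log2(TPM + 0.5) was fitted with limma 3.58.1 in R 4.3.3 (lmFit, eBayes with a trend), over the genes that reached 0.5 TPM in 3 or more libraries of the fit. p-values were adjusted by Benjamini-Hochberg over all genes tested. Covariates followed the study for TA (1 surrogate variable, 5 rounds) and heart (labelled sex). Labelled sex was also used here for the vehicle tissue comparison and the interaction. No covariate entered the D + Q tissue comparison. Fold changes on this scale understate low genes. In simulated data with 200 changed genes, the TA fit recovered 75 at a log2 size of 1 and 166 at 2, and the heart fit 150 and 183. Unchanged genes called beside these were 11 and 7 in TA and 9 and 8 in heart. The simulated noise was independent between genes and held no sex or hidden factor, unlike the data.

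Members and gene lists were chosen with earlier results of these data known. Named genes were 14 core chaperones, the 8 largest called members in each direction between tissues and, where fewer than 6 members were called, the 3 per compartment with the smallest p. Dnajb4 and Dnajc3 values beyond that rule, and the mitochondrial genes in vehicle mice, were added after their values were seen. Groups shared replicate numbers, and same-numbered samples did not deviate together (closing section). Hspa1a and Hspa1b are near-identical and Salmon may divide reads between them. Figures were drawn with matplotlib. Alternatives varied the pseudocount, filter, scaling, covariates, variance trend, minimum fold change, replicate block and each left-out library. No protein sequence was used here.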

Additional observations from a re-analysis of the deposited data

Results flagged for a closer look

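In groups of 4 mice, 1 member in 1 library was marked where its gap to the nearest mouse exceeded Dixon's 95% value. This was so in 10 of 168 tests, and chance alone marks about 1 in 20. In TA D + Q replicate 1, Hspa1a (181 TPM), Hspa1b (166 TPM) and Dnajb1 (55.9 TPM) were above the other 3 mice of the group. In TA vehicle replicate 3, Hspa8 (834 TPM) and Hsp90aa1 (101 TPM) were above theirs. In TA vehicle replicate 4, Hspd1 (71.5 TPM) and Dnajb2 (21.4 TPM) were below theirs. Dnajc12 was high in TA vehicle replicate 1 (7.11 TPM), Hspa4l was high in TA vehicle replicate 2 (7.89 TPM), and Dnajc5 was low in heart vehicle replicate 1 (14.6 TPM).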

How the results depend on the processing

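Depth is unknown for these values, groups held 3 or 4 mice, and every p rests on the spread between them. The count of members called in TA and for the interaction was 0 under every alternative run. In heart it was 0 except without heart vehicle replicate 3 (range over left-out libraries 0 to 1 higher). In vehicle TA against vehicle heart the counts of 20 higher and 2 lower became 13 and 6 with median-of-ratios scaling, and 6 were lower with no minimum fold change. Over left-out libraries they were 17 to 21 higher and 1 to 2 lower, with 1 lower without TA vehicle replicate 4 or heart vehicle replicate 2, 3 or 4. In D + Q TA against D + Q heart the counts of 13 and 5 became 8 and 1 with labelled sex. There 9 were lower with median-of-ratios scaling or with no minimum fold change, and over left-out libraries the counts were 10 to 15 and 3 to 6, with 3 without heart D + Q replicate 2. Between tissues, the shares of all genes called are given only for the main fit and with no minimum fold change. The cause of these shifts was not tested.

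In TA, the log2 fold change of Hspa1a turned from 0.07 to -0.038 with median-of-ratios scaling. Over left-out libraries it was -0.43 to 1.41, with -0.42 without D + Q replicate 1 (also -0.42 with no covariate as well, an alternative added after the data were seen), -0.21 without D + Q replicate 2 and -0.43 without vehicle replicate 3. Hspa1b, at -0.41 to 1.24 over left-out libraries, turned to -0.40 without D + Q replicate 1 with or without the covariate and to -0.41 without vehicle replicate 3. Dnajc18 turned to 0.071 with labelled sex. For the interaction, Hspa5 turned to -0.001 without TA vehicle replicate 3 (range -0.001 to 0.64), and Dnajc27 to -0.03 with the replicate block and to -0.008 without TA vehicle replicate 1 (range -0.008 to 0.29). None of these values was called.

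Same-numbered samples correlated at -0.3 to 0.05 in their deviations from the group means, so the values showed no pairing by number. The labels do not say what the numbers stand for, and these few correlations cannot exclude a shared origin. With the replicate number as a block, the members called were 0 in TA, in heart and for the interaction, 20 higher and 2 lower in vehicle tissue, and 10 higher and 6 lower in D + Q tissue.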
